A study of Mus musculus with 42 samples.

Results

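The comparison is of conventional CD4 T cells (Tconv) sorted from the inguinal and popliteal lymph nodes of TNFdARE mice and of their WT littermates. These nodes drain the joints. The members were chosen by their labels alone, as the Tconv libraries of these nodes, and they are 6 of the 42 libraries in the series, with 3 TNFdARE and 3 WT libraries. The TNFdARE allele lacks an AU-rich element of the Tnf messenger RNA that normally speeds the decay of the message, and TNFdARE mice develop gut and joint inflammation. All mice of both genotypes also carried the DEREG transgene, in which Foxp3 control sequences drive a green fluorescent reporter. Cells positive for the reporter were sorted as regulatory T cells (Treg) and the remaining CD4 T cells as Tconv, so the sort read the transgene and not the Foxp3 protein. The letters A, B and C name 3 independent experiments, each of which gave 1 library per genotype. Age, sex, background strain, the number of mice behind a library and any treatment are not given in the sources used here, so p-values measure the spread between these libraries.

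Treg hold back other T cells and are defined by the transcription factor Foxp3, while Tconv comprise naive, helper and memory CD4 T cells. TNF signals through receptors that engage the NF-kB pathway. In its alternative branch the kinase encoded by Map3k14 drives processing of the Nfkb2 product, which pairs with RelB. Type I interferons act through STAT2 and IRF9 on a set of antiviral genes that resting T cells express at a low, variable level.

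Total counts of the 6 Tconv libraries lay between 18261064 and 24847946. CD4 T cell markers stood high in all of them, with 14 marker genes summing to 11380 to 11698 CPM (read counts scaled to library size) in TNFdARE and 11689 to 12619 CPM in WT, and none of the 14 passed the test. Cd8a had 2 to 7 counts, and S100a8 and S100a9 of myeloid cells and Ccl19 and Ccl21a of stroma had none in any of the 6 libraries. Other stromal and B cell markers had counts mainly in TNFdARE B and WT C, such as Col3a1 (19 and 33 counts, 0 in the other 4) and Ebf1 (24 and 19 counts, 0 to 2 in the other 4). TNFdARE replicate B and WT replicate C stood apart: they held 29599 and 31454 genes with at least 1 count, against 17835 to 18172 in the other 4, mostly through genes with 1 to 5 counts. Counts over gene lists, and calls that changed without these 2 libraries, are given both ways. Some lists share members, so a gene can count in more than 1 list.

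Of 14691 genes tested, 410 (2.79%) passed: 336 (2.29%) rose and 74 (0.504%) fell in TNFdARE Tconv (edgeR's quasi-likelihood test, adjusted p under 0.05). In all 336 and all 74 the TNFdARE and WT libraries did not overlap, so a lack of overlap adds nothing to a call. Of all tested genes, 8.94% lay higher and 5.12% lower in every TNFdARE library. The genes that rose had a median log2 fold change of 1.04 and were led by Treg-associated genes, Il1r2, Casp1 and Arrdc4. The genes that fell had a median of -0.63, and 24 of the 74 belonged to a list of 32 interferon-induced genes. The median over all genes tested was 0.01. Without TNFdARE B and WT C, 359 genes (2.43%) rose and 54 (0.365%) fell, and 292 of the 410 genes passed in both fits. With the 6 Tconv libraries fitted alone 242 genes passed, and with the spread estimated over all 42 libraries 123. These fits also filtered and normalized the libraries anew, with 13318 and 22243 genes tested, so they differ in more than the spread.

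**Figure D1:**
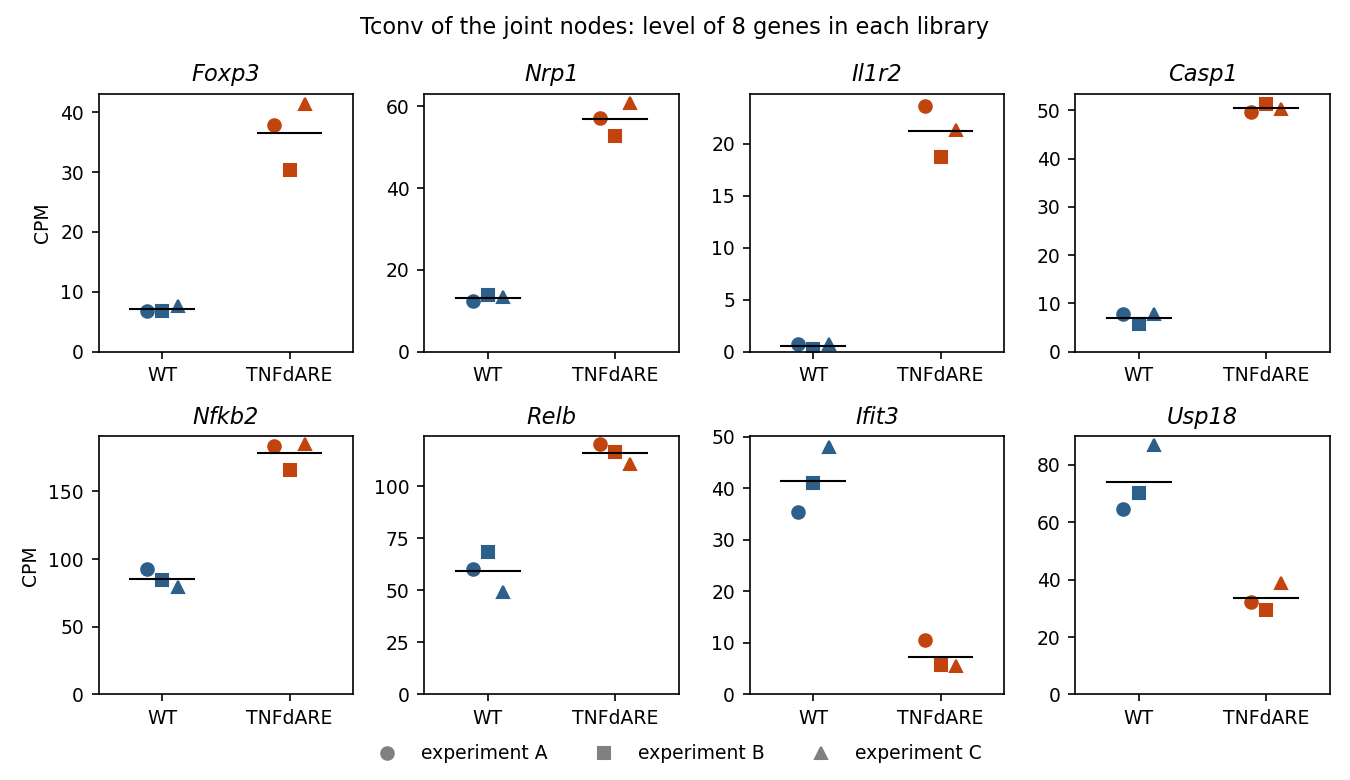
CPM of 8 genes in the 6 joint-node Tconv libraries, in TNFdARE and WT, with 1 symbol per experiment and a line at the mean of each group. For each of the 8 genes the TNFdARE and WT libraries do not overlap, with Foxp3, Nrp1, Il1r2, Casp1, Nfkb2 and Relb higher and Ifit3 and Usp18 lower in TNFdARE.

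Tnf, the gene that carries the altered allele, was at 72.0, 68.2 and 54.2 CPM in TNFdARE libraries A, B and C and at 52.0, 54.3 and 24.4 CPM in WT libraries A, B and C. Gene counts do not show the deleted element, so Tnf does not check the genotype labels. WT C had the lowest value and TNFdARE C lay beside the other 2 WT libraries, so the groups overlapped. The log2 fold change was 0.57 ± 0.25 (SE, n = 3 per group, adjusted p = 0.414 with edgeR). With the experiment as a replicate block Tnf passed, at 0.63 ± 0.12 (adjusted p = 0.00957), and without WT C the change was 0.29.

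Foxp3 (chrX:7573644-7595245, GRCm38) stood at 37.9, 30.5 and 41.4 CPM in TNFdARE Tconv and at 6.79, 6.83 and 7.57 CPM in WT Tconv. Every TNFdARE library lay above every WT library. The log2 fold change was 2.38 ± 0.11 (SE, n = 3 per group, adjusted p = 2.5e-08 with edgeR). In Treg of the same nodes Foxp3 averaged 1201 ± 65.2 CPM in TNFdARE and 1200 ± 103 CPM in WT (SD, n = 3 each). The Tconv level was thus 3.05% of the Treg level in TNFdARE and 0.589% in WT. In bulk RNA, a few cells with much of a message and many cells with little of it cannot be told apart. Whether reporter-negative Foxp3-expressing cells or Treg carried over in the sort had a part in the results below was not tested.

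Of 19 Treg core genes, 18 rose and none fell, with a median log2 fold change of 1.56 against 0.01 for all genes tested. Without TNFdARE B and WT C, 17 rose and none fell. Their summed level was 820, 755 and 897 CPM in TNFdARE A, B and C and 330, 356 and 386 CPM in WT A, B and C. Gpr83 did not pass the test, at 0.61 (adjusted p = 0.0769). Of the genes that rose, Tnfrsf4, Tnfrsf18, Tigit, Ctla4, Il2ra, Itgae and Izumo1r also count in other lists below. All 19 lay higher in every TNFdARE library than in any WT library, where 8.94% of all tested genes did so. In Treg themselves 8 of the 19 rose and 1 fell with genotype, with a median of 0.41, where 3.36% of all tested genes rose and 2.34% fell.

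Nrp1 encodes neuropilin-1, a surface receptor used to mark Treg of thymic origin (chr8:128358604-128503363). It stood at 57.1, 52.8 and 60.7 CPM in TNFdARE and at 12.3, 13.8 and 13.5 CPM in WT. The libraries within each genotype lay close together and the log2 fold change was 2.11 ± 0.08 (adjusted p = 2.4e-09), with 2.18 ± 0.10 without the 2 libraries that stood apart. Penk, which encodes the enkephalin precursor, was at 37.4, 30.1 and 40.5 CPM against 1.74, 0.698 and 3.03 CPM in WT, a log2 fold change of 4.32 ± 0.29 (adjusted p = 4.9e-07). Itgae, the integrin chain CD103 that binds E-cadherin, was at 52.9, 23.7 and 36.8 CPM against 9.0, 8.03 and 7.35 CPM. TNFdARE B was the lowest of the TNFdARE libraries for all 3 of Foxp3, Penk and Itgae, and still lay above every WT library. Ikzf2, which encodes the transcription factor Helios, was at 21.9, 21.2 and 28.4 CPM against 2.72, 6.23 and 8.00 CPM (log2 fold change 2.10 ± 0.29).

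Of 12 tested genes on a list of co-inhibitory receptors 4 rose (Tigit, Ctla4, Pdcd1 and Pdcd1lg2). Pdcd1lg2 encodes a ligand of the Pdcd1 receptor and is not itself a receptor gene. The count was also 4 without the 2 libraries that stood apart, but Pdcd1lg2 did not pass there. It was 2 without WT A or with the spread over all 42 libraries. Ctla4, which competes for CD80 and CD86, was at 41, 26.9 and 39.1 CPM against 16.1, 13.6 and 12.7 CPM in WT (1.34 ± 0.14, adjusted p = 3.7e-05). Tigit, another inhibitory receptor, was at 6.97, 6.89 and 6.96 CPM against 0.594, 1.05 and 1.41 CPM (2.80 ± 0.23). Lrrc32, which anchors latent TGF-beta at the surface, had a log2 fold change of 2.80, and the ectoenzymes Nt5e (CD73) and Entpd1 (CD39) had 1.41 and 1.56. Il2ra, the high-affinity chain of the interleukin-2 receptor, rose less: it was at 16.6, 15.3 and 18.2 CPM against 7.98, 8.48 and 9.94 CPM (0.93 ± 0.10). In Treg, Il2ra fell with genotype, by 0.40 on the log2 scale (adjusted p = 0.0108). Swap70, a signalling adaptor, rose by 0.59 and did not pass without the 2 libraries that stood apart (adjusted p = 0.0728).

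The rises can be set beside the level of each gene in Treg of the same TNFdARE nodes. For Foxp3 the rise in Tconv from WT to TNFdARE was 2.46% of the TNFdARE Treg level. Across the 19 Treg core genes it ranged from 0.970% for Il2ra to 17.2%, with a median of 6.63%. This measure was chosen after its values were seen and was given no test. Over 25 NF-kB genes its median was 9.52%, with Nfkb2 at 34.8% and Relb at 40.8%. The median was 16% over the 336 genes that rose and 0.5% over all tested genes. The measure depends on how near the Tconv level is to the Treg level. In WT the median Tconv level was 70.3% of the Treg level for the NF-kB genes and 4.08% for the Treg core genes.

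**Figure D2:**
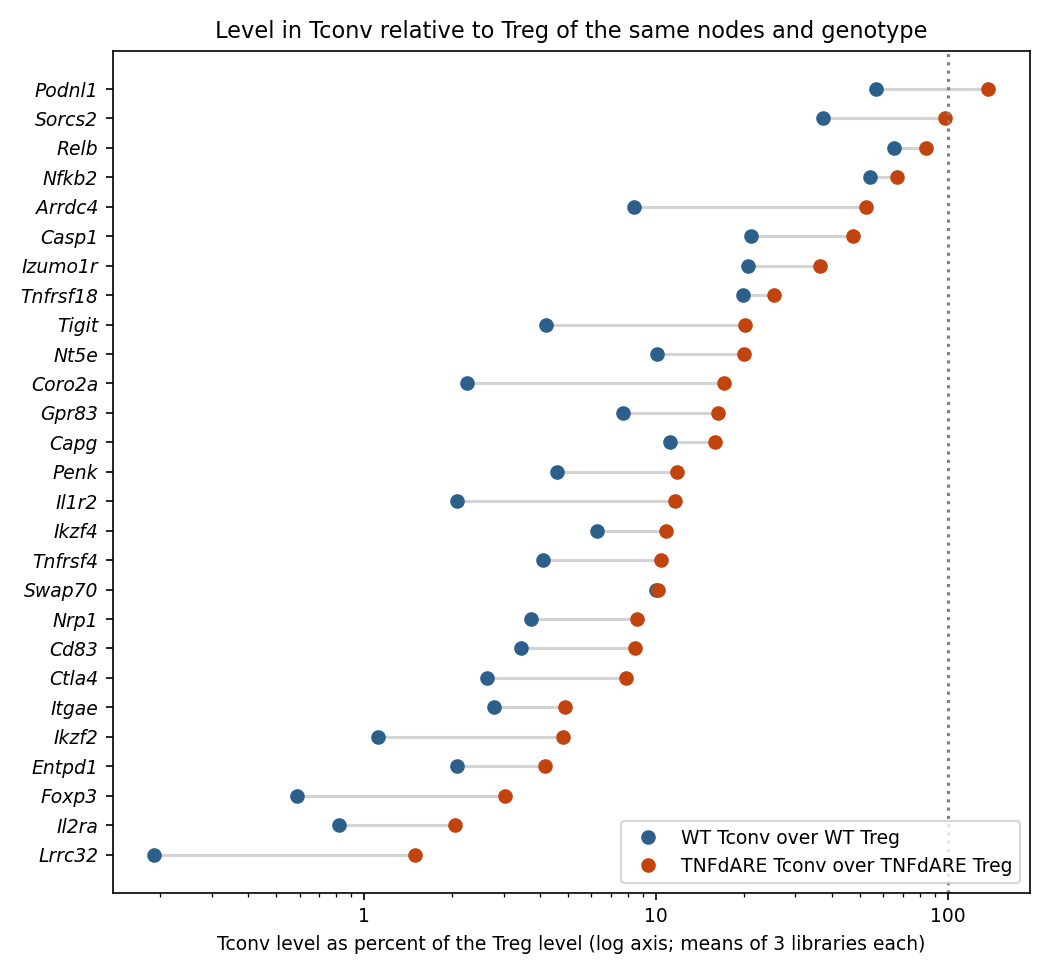
Level in joint-node Tconv as a percentage of the level in Treg of the same nodes and genotype, on a log axis, for 27 genes, with orange points for TNFdARE, blue points for WT and a dotted line at 100%. Foxp3 moves from 0.589% in WT to 3.05% in TNFdARE, whereas Casp1, Nfkb2 and Relb lie much closer to the Treg level in both genotypes.

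Il1r2 had one of the highest fold changes of the comparison. It encodes the decoy receptor that binds interleukin-1 without signalling (chr1:40074079-40125231). Its level was 23.7, 18.7 and 21.3 CPM in TNFdARE and 0.764, 0.200 and 0.703 CPM in WT, a 37.4-fold difference of the fitted means (log2 fold change 5.23 ± 0.28, adjusted p = 9.6e-08). The rise was 11.3% of the TNFdARE Treg level. Of 10 interleukin-1 receptor family genes tested, Il1r2 and Il1rl1 rose and none fell, both with and without the 2 libraries, with list medians of 0.09 and 0.21. Without TNFdARE A the median was -0.01 and without WT C 0.32. Il1rl1, the receptor for interleukin-33, was at 3.41, 3.04 and 8.20 CPM against 0, 0.499 and 1.30 CPM (adjusted p = 0.00603). The ligand genes Il1a and Il1b had 0 to 7 counts in each library and were too low to test.

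Casp1, which encodes the protease that matures interleukin-1 beta and interleukin-18 (chr9:5298517-5307265), was at 49.8, 51.2 and 50.2 CPM in TNFdARE and at 7.73, 5.68 and 7.73 CPM in WT. The log2 fold change was 2.84 ± 0.14 (adjusted p = 2.5e-08) and the rise was 40.5% of the TNFdARE Treg level. Arrdc4, an arrestin-domain adaptor (chr7:68736995-68749241), was at 36.0, 40.6 and 61.4 CPM against 1.40, 1.40 and 2.11 CPM (4.83 ± 0.27, adjusted p = 1.2e-07). Coro2a, an actin-binding coronin, was at 49.4, 38.2 and 79.4 CPM against 10.9, 6.63 and 9.30 CPM (2.64 ± 0.23). The libraries of experiment C were the highest of the TNFdARE libraries for both Arrdc4 and Coro2a, and the genotypes did not overlap. Podnl1, a small leucine-rich proteoglycan, was at 19.7, 20.4 and 20.3 CPM against 5.82, 3.44 and 5.30 CPM, a rise of 104% of its TNFdARE Treg level. Ttn was at 42.4, 36.0 and 74.5 CPM against 2.63, 1.25 and 17.1 CPM (2.92 ± 0.62, adjusted p = 0.0178), and it did not pass without WT A, without WT B or without TNFdARE C. Apol9b, which shares reads with a near-identical copy, had a log2 fold change of 2.15 and its split between copies is uncertain.

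Nfkb2 and Relb, the pair of the alternative NF-kB branch, both rose about 2-fold. Of 25 genes for NF-kB subunits, kinases and inhibitors, 7 rose and none fell, with a median log2 fold change of 0.19; 7 also rose without TNFdARE B and WT C (median 0.13), and 4 without TNFdARE A. The 2 stretches below show the start-proximal Nfkb2 sequence, because its RefSeq promoter windows hold matches to a kappaB form, the sequence that NF-kB dimers bind. They are from GRCm38.p6, plus strand, at chr19:46304681-46304780 and, for another annotated start, chr19:46305680-46305779, with the match in capitals.
Nfkb2: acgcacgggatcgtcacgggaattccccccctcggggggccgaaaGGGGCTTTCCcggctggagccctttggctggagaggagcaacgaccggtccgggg
Nfkb2, other start: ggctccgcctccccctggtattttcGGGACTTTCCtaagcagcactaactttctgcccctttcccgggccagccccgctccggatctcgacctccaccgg

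The searched form was GGG, any 2 bases and TTTCC, read on both strands, in windows from 250 bases before to 50 after each RefSeq start. It was found in 1.63% of 32851 windows and, by gene, in 2.08% of the 10136 tested genes with a window, in 16 of 250 genes that rose (6.40%) and in none of 53 that fell. Among the NF-kB genes with a window it was found in 1 of 5 that rose and in 6 of 16 that did not pass. A second form, GGGA, any 2 bases and TTCC, which can match the same site, was in 1.82% of tested genes, 4.80% of those that rose and 7.55% of those that fell. Birc3, Nfkbie, Tnip1 and Bcl3 held no match to either in these windows. A match is a description of the sequence and no measurement of binding.

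Nfkb2 (chr19:46304320-46312385) was at 184, 166 and 185 CPM in TNFdARE and at 92.8, 84.6 and 79.6 CPM in WT, with no overlap. The log2 fold change was 1.06 ± 0.08 (SE, adjusted p = 3.2e-06), a 2.08-fold difference. Relb (chr7:19606217-19629438) was at 121, 117 and 111 CPM against 60.5, 68.6 and 49.3 CPM (0.96 ± 0.11, adjusted p = 0.00013). Of the classical branch, Nfkb1 rose by 0.36 (adjusted p = 0.0395), while Rel stood at 0.34 (adjusted p = 0.221) and Rela at 0.08 (adjusted p = 0.921). Map3k14, the kinase of the alternative branch, was at -0.01 (adjusted p = 0.998).

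Among inhibitors and feedback genes, Birc3, a ubiquitin ligase of the TNF receptor complex, was at 191, 182 and 203 CPM against 130, 134 and 130 CPM (0.55 ± 0.07, adjusted p = 0.00027). Nfkbie, an inhibitor of NF-kB dimers, rose by 0.60 ± 0.10 (adjusted p = 0.00413). Tnip1, a partner of the deubiquitinase A20, rose by 0.49 and Bcl3, an atypical inhibitor family member, by 0.45. Nfkbia and Tnfaip3, the classical feedback inhibitors, were at 0.20 and 0.31 and did not pass (adjusted p = 0.947 and 0.913). In Treg of these nodes, 4 of the 25 genes rose and 1 fell with genotype. When the spread was estimated over all 42 libraries, 3 of the 25 rose in Tconv.

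**Figure D3:**
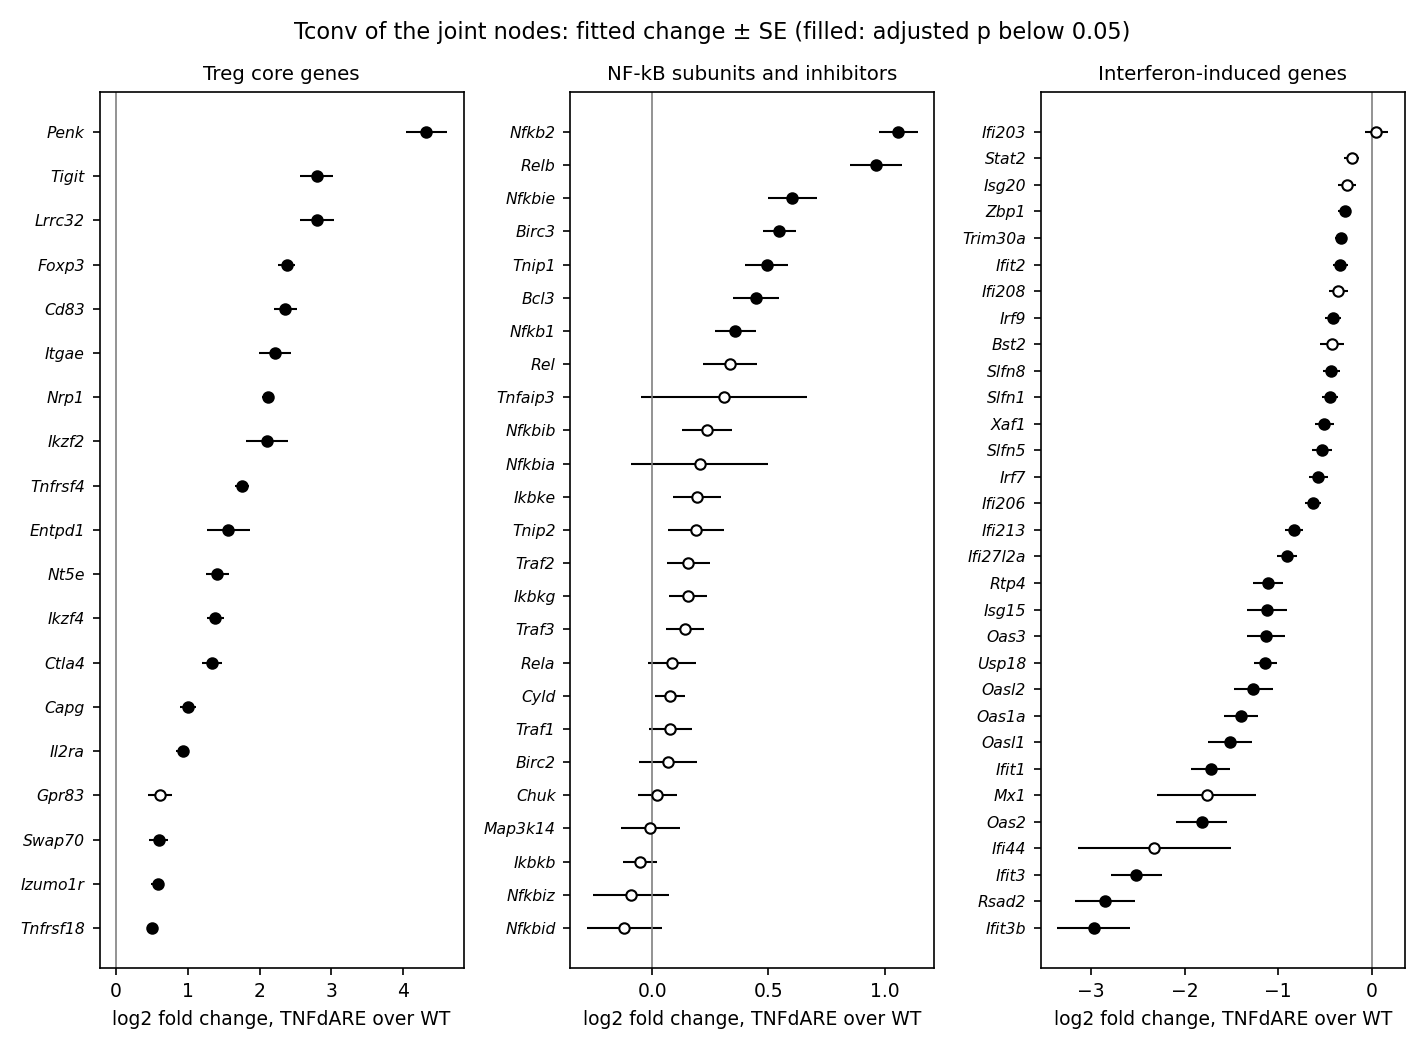
Fitted log2 fold change of TNFdARE over WT in joint-node Tconv, with its SE, for genes of the Treg core, NF-kB and interferon-induced lists, with filled points where the gene passed the test and open points where it did not. Treg core genes lie above 0 with a median of 1.56, NF-kB genes near 0.19 and the interferon-induced genes shown, other than Ifi203, below 0, with a list median of -0.73.

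Among 23 tested genes of the TNF ligand and receptor families, 7 rose and none fell both with and without the 2 libraries that stood apart, with medians of 0.33 and 0.25. The count was 4 with the spread over all 42 libraries, and 5 with 1 lower when the 6 Tconv libraries were fitted alone. Tnfrsf4, the costimulatory receptor OX40, was at 60.8, 53.1 and 57.4 CPM against 14.1, 17.5 and 19.4 CPM in WT (1.75 ± 0.10, adjusted p = 1.4e-07). Tnfrsf9, the receptor CD137, was at 49.9, 49.4 and 58.5 CPM against 30.1, 26.3 and 29.5 CPM (0.88 ± 0.09). Tnfrsf1b, the TNF receptor that T cells use most, was at 143, 132 and 146 CPM against 103, 85.5 and 108 CPM (0.50 ± 0.10, adjusted p = 0.00819). In these 3 genes no TNFdARE library lay below any WT library. Tnfrsf18 (GITR) and Tnfrsf25 (DR3) each rose by 0.50, Tnfrsf8 (CD30) by 1.96 and Tnfsf11, the ligand RANKL, by 0.44. The other TNF receptor, Tnfrsf1a, was at -0.30 (adjusted p = 0.222), and the ligands Ltb, Lta and Cd40lg were at 0.24, 0.18 and -0.40 and did not pass.

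Among 20 genes of the common gamma-chain cytokine receptors and their STAT feedback, 7 rose and none fell, with a median of 0.25. Il2rb, the signalling chain shared by the interleukin-2 and interleukin-15 receptors, was at 122, 101 and 117 CPM against 58.9, 72.3 and 59.8 CPM (0.83 ± 0.10, adjusted p = 0.00018). Jak3, the kinase bound to the common gamma chain, rose by 0.60 ± 0.08. Cish, a feedback inhibitor induced by STAT5, was at 27.3, 25.2 and 25.9 CPM against 10.9, 12.1 and 18.5 CPM (0.93 ± 0.15, adjusted p = 0.00248). Socs3, Socs1 and Il9r passed in the fit of all libraries and not without TNFdARE B and WT C, which left 4 of the 20, as did the spread over all 42 libraries and leaving out WT A or TNFdARE B alone. Il7r, the interleukin-7 receptor of naive and memory cells, stood at 0.29 (adjusted p = 0.701). In Treg of these nodes none of the 20 rose and 2 fell.

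Genes of follicular helper T cells, which help B cells in germinal centres, rose in 7 of 13 tested (8 of 13 without the 2 libraries), with a median of 0.57. Of the 7, Izumo1r also counts among the Treg core genes, Maf among antigen-experienced genes, Cxcr5 among homing genes and Pdcd1 among co-inhibitory receptors. Maf was at 24.8, 21.2 and 23.9 CPM against 6.20, 9.08 and 8.54 CPM (1.56 ± 0.14, adjusted p = 1.1e-05). Cxcr5, the receptor that guides cells to B cell follicles, was at 16.1, 15.7 and 20.1 CPM against 6.62, 9.42 and 7.46 CPM (1.145 ± 0.151). Slamf6, an adhesion receptor, was at 256, 257 and 265 CPM against 172, 179 and 173 CPM (0.57), and the transcription factor gene Tox2 had a log2 fold change of 2.05. The lineage factor Bcl6 was at 0.33 (adjusted p = 0.351), Icos at 0.30 (adjusted p = 0.206) and the cytokine Il21 at 0.56 (adjusted p = 0.887), none past the test. Pdcd1, the receptor PD-1, rose by 0.96 (adjusted p = 0.0198). In Treg 3 of the 13 rose, and Maf averaged 90.6 CPM in TNFdARE Treg and 70.4 CPM in WT Treg, above its Tconv levels. With the spread over all 42 libraries 2 of 15 rose in Tconv.

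Genes on lists of helper lineages moved in part, and some of them are also expressed by Treg. Of 20 type 1 helper and cytotoxic genes, 5 rose and none fell with and without the 2 libraries, with medians of 0.08 and 0.15. Klrg1, an inhibitory receptor of differentiated cells, was at 6.02, 4.15 and 4.28 CPM against 0.297, 0.399 and 0.486 CPM (3.62 ± 0.23, adjusted p = 4.1e-07), and the chemokine Ccl5 was at 8.29, 9.52 and 8.77 CPM against 2.29, 1.35 and 1.03 CPM (2.49 ± 0.29). Nkg7, Gzmb and Gzmk also rose, while the lineage factor Tbx21 was at -0.86 (adjusted p = 0.454) and Ifng at -0.26 (adjusted p = 0.970). Of 12 type 17 genes, Ccr6, Batf and Rora rose: Ccr6, a receptor for CCL20, was at 24.2, 20.8 and 25.9 CPM against 5.05, 7.13 and 7.30 CPM (1.87 ± 0.14). Il17a had 0 counts in all 6 libraries. Of 7 type 2 genes, Ccr8, Ccr4 and Il1rl1 rose. Without the 2 libraries 3 type 17 and 4 type 2 genes rose, and 1 type 17 gene rose without WT A or without TNFdARE C. Il5, Il13, Il9 and Il24 had 0 to 4 counts in each library. With the spread over all 42 libraries, 3 type 1, 1 type 17 and 2 type 2 genes rose. Klrg1, Ccr6 and Ccr8 stood higher in Treg of the same nodes than in Tconv. Their mean Treg levels in TNFdARE and WT were 59.2 and 32.2 CPM (Klrg1), 239.8 and 69.4 CPM (Ccr6), and 119.2 and 63.5 CPM (Ccr8). Treg levels of the other genes that rose are not given here. The part of Treg in these rises was not tested.

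Of 27 homing and chemokine receptor genes, 7 rose and 1 fell, with a median of 0.09. Without the 2 libraries 8 rose and 1 fell and the median was 0.45, and it was 0.34 without WT C alone and 0.21 without TNFdARE A. Gpr15, a receptor that guides T cells to the large intestine, was at 6.92, 6.03 and 8.40 CPM against 0.679, 0.598 and 0.540 CPM (3.54 ± 0.24, adjusted p = 4.9e-07). Ccr8 was at 29, 24.5 and 30.9 CPM against 11, 9.62 and 12.7 CPM (1.34 ± 0.14). Ccr10, a receptor of skin-homing cells, was the one that fell, at 0.237, 0.557 and 0.782 CPM against 2.89, 1.90 and 1.78 CPM (-2.04 ± 0.38, adjusted p = 0.00734). Of 17 genes of naive cells and node retention, Ly6c1 fell, at 129, 158 and 138 CPM against 214, 228 and 183 CPM (adjusted p = 0.0436), and none rose. Ly6c1 passed without the 2 libraries, and not without TNFdARE A, WT A, WT B or TNFdARE C. Ccr7, which brings naive cells into nodes, was at -0.03 (adjusted p = 0.970). Of 28 genes of antigen-experienced cells, 5 rose (Maf, Il2ra, Batf, Ahr and S100a4), and 2 with the spread over all 42 libraries or without TNFdARE C. Without the 2 libraries 4 of the 28 rose and 1 fell. None of 24 cell cycle genes, 19 glycolysis genes or 17 immediate early genes passed, at medians of 0.25, 0.02 and -0.47. With the replicate block 1 gene passed in each of these lists, and without the filter on low counts 3 cell cycle genes rose and 6 immediate early genes fell. The immediate early median rested on single libraries: it was -0.02 without WT A, -0.20 without TNFdARE C, -0.73 without TNFdARE A, -0.85 without WT C and -0.92 without the 2 libraries that stood apart.

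Interferon-induced genes fell together. Of 32 such genes 24 fell and none rose, with a median log2 fold change of -0.73 against 0.01 for all genes tested. In 31 of the 32 every TNFdARE library lay below every WT library, where 5.12% of all tested genes did so. Their summed level was 2588, 2537 and 2636 CPM in TNFdARE A, B and C and 3505, 3457 and 4049 CPM in WT A, B and C. Without TNFdARE B and WT C, 13 fell and the median was -0.71; with the spread over all 42 libraries, 2 fell and the median was -0.74. The median thus moved little between these fits while the number past the test differed.

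Promoter sequences of 4 of these genes are shown because they hold the core of the interferon-stimulated response element (ISRE), which transcription factors activated by interferon bind. The searched core was GAAA, any 2 bases and GAAA, read on both strands (on the opposite strand TTTC, any 2 bases and TTTC), and matches are in capitals. The stretches are RefSeq sequence of GRCm38.p6 at chr19:34583345-34583444 (plus strand) for Ifit3, chr19:34640749-34640848 (plus strand) for Ifit1, chr4:156200836-156200935 (minus strand) for Isg15 and chr12:26456518-26456617 (minus strand) for Rsad2.
Ifit3: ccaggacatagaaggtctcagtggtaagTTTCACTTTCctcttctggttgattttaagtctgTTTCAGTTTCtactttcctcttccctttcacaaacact
Ifit1: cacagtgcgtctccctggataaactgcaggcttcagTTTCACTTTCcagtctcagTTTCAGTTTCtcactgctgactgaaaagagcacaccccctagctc
Isg15: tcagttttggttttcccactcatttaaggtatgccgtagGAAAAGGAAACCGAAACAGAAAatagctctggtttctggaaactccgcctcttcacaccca
Rsad2: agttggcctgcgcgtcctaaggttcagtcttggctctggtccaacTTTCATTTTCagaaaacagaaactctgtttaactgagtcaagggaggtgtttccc

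The ISRE core began 156 and 122 bases before the Ifit3 start, 104 and 85 before that of Ifit1, 120 before that of Rsad2, and 78, 72 and 66 before that of Isg15, where the 3 matches overlap. It was present in 3.44% of all windows and in 3.83% of tested genes with a window. Of the interferon-induced genes that fell, 12 of 19 with a window held it (63.2%), as did 6 of 34 other genes that fell (17.6%) and 21 of 250 genes that rose (8.40%). Irf7 held no match in its window.

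Ifit3, a cytoplasmic antiviral protein, was at 10.6, 5.67 and 5.48 CPM in TNFdARE and at 35.5, 40.9 and 47.9 CPM in WT, 5.71-fold lower (-2.51 ± 0.27, adjusted p = 6.4e-05). It shares reads with the near-identical copy Ifit3b, which changed by -2.97, so the split between them is uncertain. Usp18, the protease that removes ISG15 from proteins and dampens the interferon receptor, was at 32.3, 29.5 and 38.7 CPM against 64.7, 70.3 and 87.0 CPM (-1.14 ± 0.12, adjusted p = 6.4e-05). Rsad2, the enzyme viperin, was at 1.85, 1.62 and 1.52 CPM against 7.13, 11.6 and 17.5 CPM (-2.85 ± 0.32), and WT C was the highest WT library for each of these 3 genes.

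Ifit1 was at 38, 31.4 and 26.1 CPM against 88.1, 91.4 and 135 CPM (-1.72 ± 0.21, adjusted p = 0.00018). Ifi27l2a was at 92.6, 95.4 and 73.7 CPM against 152, 172 and 167 CPM (-0.91 ± 0.11), and Irf7, a transcription factor of the interferon response, at 94.3, 80.1 and 90.1 CPM against 136, 122 and 136 CPM (-0.57). Oas2 and Oas3, sensors of double-stranded RNA, fell by 1.82 and 1.13 on the log2 scale, and Isg15 by 1.12. Isg15 and Oas3 did not pass without TNFdARE B and WT C (adjusted p = 0.0511 and 0.0649). Stat2, which carries the interferon signal, stood at -0.22 and did not pass (adjusted p = 0.277). Ifi203 was the one member with a positive fitted change, 0.05 (adjusted p = 0.977). In Treg of these nodes 30 of the 32 genes fell, with a median of -1.02.

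Guanylate-binding proteins and immunity GTPases, which are induced by interferon gamma and guard against intracellular pathogens, moved in both directions: 5 of 16 fell and 1 rose, with a median of -0.23, and the same counts were found without the 2 libraries. Gbp5, the one that rose, did not pass without TNFdARE A, WT A, WT B or TNFdARE C. Gbp6 was at 22.1, 18.3 and 20.9 CPM against 34.1, 32.2 and 34.8 CPM (-0.72 ± 0.11, adjusted p = 0.00182) and Igtp at 212, 231 and 218 CPM against 297, 291 and 330 CPM (-0.47). Gbp10, Irgm1 and Iigp1 fell too. Gbp5 rose, at 41.4, 32.4 and 47.8 CPM against 26.8, 25.2 and 30.8 CPM (0.56 ± 0.12, adjusted p = 0.0242). With the spread over all 42 libraries none of the 16 passed. Outside these lists, App, the amyloid precursor protein gene, fell from 35.9, 34.4 and 37.2 CPM in WT to 15.9, 13.9 and 13.7 CPM in TNFdARE (-1.30 ± 0.21). Acvrl1, a receptor of the TGF-beta superfamily, fell from 70.8, 66.2 and 61.0 CPM to 35.8, 32.3 and 33.4 CPM (-0.97 ± 0.13, adjusted p = 0.00036).

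Markers of other cells were read beside these groups. The summed level of 10 MHC class II genes was 171 to 180 CPM in TNFdARE and 110 to 123 CPM in WT, without overlap, and 2 of the 10 rose. Cd74, the invariant chain, was at 54.5, 38.5 and 41 CPM against 11.5, 12.1 and 10.2 CPM (1.99 ± 0.16), and H2-DMa, which loads peptides, had a log2 fold change of 0.57. The 5 tested B cell markers summed to 5.30 to 10.1 CPM against 3.90 to 12.4 CPM, and none passed. The 8 tested myeloid and dendritic markers summed to 64.6 to 68.7 CPM against 54.5 to 63.6 CPM without any passing, and the 6 CD8 T cell and NK cell markers to 45.3 to 50 CPM against 52.2 to 59.6 CPM, also without any passing. The 6 tested plasma cell markers summed to 841 to 910 CPM against 856 to 885 CPM, most of it Ighm, and Igkc rose, at 3.32, 3.24 and 2.64 CPM against 0.0849, 0.0997 and 0 CPM. The part of the MHC class II, myeloid and Igkc differences in the other results was not tested. The 5 tested stromal and endothelial markers summed to 269 to 288 CPM against 274 to 300.1 CPM, nearly all of it Pecam1, and none passed. The 9 tested markers of innate lymphoid and unconventional T cells summed to 1112 to 1621 CPM against 1073 to 1129 CPM. TNFdARE C was the highest, with Il7r at 1387 CPM there and 804 to 891 CPM in the other 5. Of these 9 Kit rose, and it did not pass without the 2 libraries (adjusted p = 0.0581).

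Treg of the same nodes gave a second readout of the genotype, from other libraries of the same experiments. Of the 336 genes that rose in Tconv, 296 (88.1%) had a positive fitted change in Treg and 186 (55.4%) passed there in the same direction, while 4 passed in the opposite direction. Of the 74 that fell, 72 (97.3%) had a negative change in Treg and 52 (70.3%) passed. Among all tested genes 63.2% had the same sign in both cell types, and 5.13% passed in Treg with the same sign as in Tconv. The median change in Treg was 0.55 for the genes that rose and -0.68 for those that fell, beside 1.04 and -0.63 in Tconv.

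The difference between the genotype effects in Tconv and in Treg was tested itself, and 66 genes passed (0.449%), with 56 of them more positive in Tconv. With the experiment as a replicate block, 136 passed. Foxp3 had a difference of 2.37 ± 0.15 (adjusted p = 3.6e-06), Nrp1 of 1.21 ± 0.10 (adjusted p = 6.5e-05), Il2ra of 1.33 (adjusted p = 0.00015) and Il1r2 of 2.45 (adjusted p = 0.0076). For these 4 genes the log2 change in Tconv exceeded that in Treg, which was 0.002, 0.90, -0.40 and 2.78. In level, Nrp1 and Il1r2 rose more in Treg. From WT to TNFdARE, mean Nrp1 went from 13.2 to 56.9 CPM in Tconv and from 352.5 to 659.2 CPM in Treg. Mean Il1r2 went from 0.555 to 21.3 CPM in Tconv and from 26.7 to 183.3 CPM in Treg. Foxp3 averaged 1200 CPM in WT and 1201 CPM in TNFdARE Treg, and Il2ra fell there. Nfkb2 and Relb did not pass, with adjusted p = 0.510 and 0.617 and changes in Treg of 0.76 and 0.61. The count fell to between 30 and 43 when any 1 of 10 libraries was left out, to 59 without TNFdARE Tconv B, and rose to 87 without WT Tconv C. Without both of these it was 88.

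**Figure D4:**
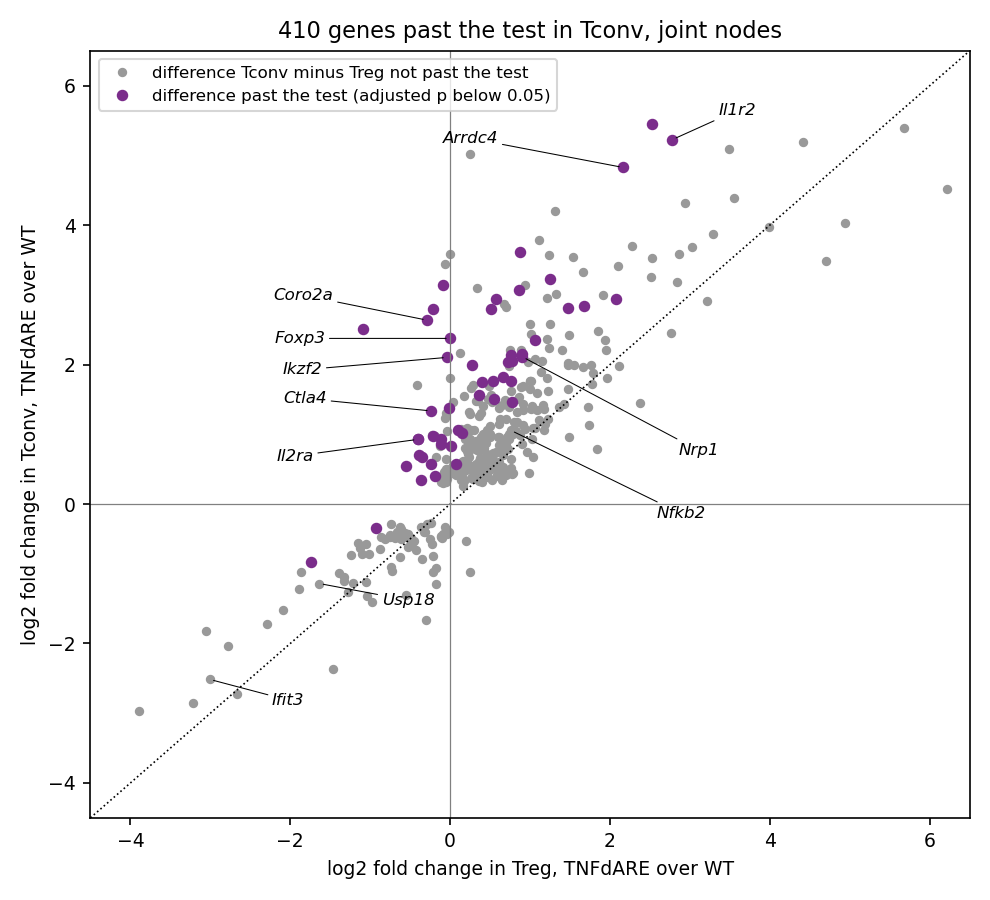
Log2 fold change of TNFdARE over WT in Treg (x axis) and in Tconv (y axis) of the joint nodes for the 410 genes that passed in Tconv, with genes whose difference between the cell types passed in purple. Most genes that rose or fell in Tconv lie on the same side of 0 in Treg (88.1% and 97.3%), and Foxp3 lies at 2.38 in Tconv and near 0 in Treg.

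Tconv of the mesenteric node, which drains the gut, were compared through 2 TNFdARE and 3 WT libraries. No gene of 16234 passed the test of a difference between the joint-node and mesenteric genotype effects (0% called; 482 genes at an unadjusted p under 0.05, 12 genes with DESeq2). With the replicate block 3 genes passed. The smallest adjusted p was that of Nrp1, 0.128, with a difference of 1.23 ± 0.17: mesenteric Nrp1 was at 31.2 and 30.4 CPM in TNFdARE B and C and at 14.4, 17.3 and 19.1 CPM in WT. Foxp3 in the mesenteric node was at 22.1 and 36.9 CPM against 7.38, 6.48 and 6.68 CPM, and Il1r2 at 19.5 and 27.4 CPM against 1.80, 1.54 and 1.93 CPM. Ifit3 was at 8.50 and 13.3 CPM against 202, 163 and 74.8 CPM there. Of the genes that rose in joint-node Tconv, 321 of 334 in both fits had a positive mesenteric change, with a median of 0.74. Of those that fell, 72 of 74 had a negative one, with a median of -0.94. Among all genes in both fits 9071 of 14347 had the same sign.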

How the data were processed

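RNA of sorted cells was amplified with SMART-Seq v4 PLUS from 1 of 2 stated inputs and sequenced as single reads, per the labels' protocols; which library had which input is not stated. The submitters' processing notes name the GRCm38 build with Bowtie2 2.3.3.1 and cutadapt 1.15. The counting program and annotation are not given in the sources used here. The authors deposited raw counts of 46603 genes, of which 46091 took a symbol and position from GENCODE M21; their FPKM table was not used. Counts of the 12 joint-node Treg and Tconv libraries were fitted together in edgeR 4.0.16 (R 4.3.3) with TMM factors, the filterByExpr filter, 1 mean per group and the quasi-likelihood test, with Benjamini-Hochberg adjustment over all genes and a threshold of 0.05. CPM values of single genes use TMM library sizes, while summed levels of gene lists use total counts without TMM factors. The comparison with the mesenteric node was fitted on the 11 Tconv libraries of both nodes. PCR reads without molecular identifiers are not independent molecules, so a count of 0, which allows up to 3 counts, covers counting error only.

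The experiment letters pair the libraries by design, and the main fit did not use them. Deviations of same-letter TNFdARE and WT Tconv libraries from their group means correlated at 0.449 (A), 0.197 (B) and 0.381 (C) over 8752 genes. Those of different letters correlated at -0.498 to 0.2 (the highest for TNFdARE A with WT B). Deviations cancel within a group, so these values depend on each other and do not measure the strength of the pairing. Named genes were Tnf, Foxp3, Nrp1, Il1r2, Nfkb2 and Relb, the largest changes without overlap (at most 15 per direction) at a mean log2 CPM of at least 3, up to 4 per list by adjusted p, and up to 6 per direction of each interaction; other list members are given with their values. Members and lists were chosen with earlier results of these data known. Alternatives were the 6 Tconv libraries alone, all 42 libraries, a replicate block, RLE factors, DESeq2 1.42.0, voom of limma 3.58.1, no filter, leaving out each library and, added after seeing the data, leaving out TNFdARE B and WT C together. Scripts were tested on simulated data. Values of a few list members are not reported here.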

Additional observations from a re-analysis of the deposited data

Results flagged for a closer look

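The genotype effect differed between Tconv and Treg of the joint nodes for 66 genes by an interaction test (edgeR's quasi-likelihood test). Of those named by the rule, 6 had a larger log2 fold change in Tconv. The difference, Tconv minus Treg, was 2.92 ± 0.30 for Coro2a (adjusted p = 0.00026), with changes of 2.64 in Tconv and -0.29 in Treg. It was 2.66 ± 0.34 for Arrdc4, 2.37 ± 0.15 for Foxp3, 2.14 ± 0.38 for Ikzf2, 1.57 ± 0.18 for Ctla4 and 1.39 ± 0.19 for Sorcs2, a sorting receptor gene. Arrdc4 also rose in Treg, by 2.17 on the log2 scale, whereas Ctla4 and Sorcs2 changed there by -0.24 and -0.02. In level Arrdc4 rose more in Treg, from a mean of 19.5 to 87.5 CPM, than in Tconv, from 1.6 to 46.0 CPM.

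In the other direction, 6 genes rose in Treg by 0.90 to 1.90 on the log2 scale and did not pass in Tconv. The difference was -1.47 ± 0.19 for Pnkd, whose change was 1.90 in Treg and 0.44 in Tconv. It was -1.12 for Kif13b, -0.96 for Mast4, -0.83 for Smco4, -0.82 for Cldnd1 and -0.77 for Apobec1, the cytidine deaminase of apolipoprotein B editing. With the replicate block, Cldnd1 also passed in Tconv (0.33, adjusted p = 0.0418).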

How the results depend on the processing

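The count of 410 genes in the Tconv comparison became 242 with the 6 Tconv libraries alone and 123 with the spread over all 42 libraries, of which 119 (96.7%) were higher. It was 576 with the replicate block, 398 with RLE factors, 594 with DESeq2, 315 with voom and 605 without the filter, and lay between 276 (without TNFdARE Tconv C) and 444 (without WT Tconv C) when 1 library was left out. For Tconv minus Treg, 66 genes became 13 with all 42 libraries, 136 with the replicate block, 185 with DESeq2 and 224 without the filter, and 30 to 87 when 1 library was left out. For joint minus mesenteric nodes, 0 genes became 1 with all 42 libraries, 3 with the replicate block, 12 with DESeq2 and 68 without the filter, and 0 to 1 when 1 library was left out. The cause of these differences was not tested.

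No named gene changed sign in any of the alternatives run. Of 76 named genes past the test, 34 passed under every alternative. Bcl2a1b did not pass under 17 of 21 alternatives, Rora under 15, Kit under 13 and Pdcd1lg2 under 9. Others that did not pass under several include Ttn, Batf, Ahr, Pdcd1, Ly6c1 and Isg15, and Oas3 did not pass under 2. Pairing by experiment moved Tnf past the test (0.63, adjusted p = 0.00957), as did leaving out the filter (0.57). Genes near 1 CPM in WT, such as Il1r2 and Il1rl1, rest on few counts, which limits the precision of their fold changes.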

Other observations

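The genes below lie outside the naming rule, were chosen after their values were seen and stand for no gene group. Casp4, the inflammatory caspase whose gene lies beside Casp1, was at 22, 14.8 and 18.9 CPM in TNFdARE Tconv A, B and C and at 2.04, 2.59 and 3.41 CPM in WT (log2 fold change 2.81 ± 0.18, adjusted p = 3e-07). Aim2, a sensor of cytosolic DNA, was at 48.0, 44.8 and 45.5 CPM against 26.4, 29.6 and 25.2 CPM (0.77 ± 0.09). Axl, a receptor tyrosine kinase that binds apoptotic cells through GAS6, was at 22.3, 18.4 and 20.2 CPM against 2.85, 2.74 and 2.27 CPM (2.94 ± 0.14). Serpina3g, a protease inhibitor, was at 13.2, 14.6 and 16.4 CPM against 1.10, 1.60 and 2.11 CPM (3.23 ± 0.18). In each of the 4 genes the TNFdARE and WT libraries did not overlap, as in every gene that passed.

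Dtx1, a ubiquitin ligase of the Notch pathway, was higher in Tconv than in Treg of the TNFdARE nodes: 384, 382 and 310 CPM in TNFdARE Tconv, 149, 155 and 191 CPM in WT Tconv and 195, 195 and 154 CPM in TNFdARE Treg. Its rise in Tconv (1.12 ± 0.12, adjusted p = 6.4e-05) was 107% of the TNFdARE Treg level. Tank, an adaptor of TRAF proteins, was at 256, 211 and 189 CPM in TNFdARE Tconv against 128, 118 and 79.5 CPM in WT Tconv (1.01 ± 0.15). Lpxn, a paxillin family adaptor, was at 156, 156 and 171 CPM against 52.5, 61.6 and 61.3 CPM (1.46 ± 0.09). Among the genes that fell, Ly6a, the surface protein Sca-1, was at 169, 200 and 215 CPM against 271, 340 and 362 CPM (-0.74 ± 0.14, adjusted p = 0.008), and did not pass without TNFdARE B and WT C (adjusted p = 0.0509).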
